A study of Sus scrofa with 12 samples.

Results

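Single-exon circRNAs are closed RNA loops made from 1 exon, so that the whole circle comes from a single stretch of the gene. In the simplest form the end of the exon is joined back to the start of that same exon. They were taken here as the circRNAs that the deposited table puts in its single-exon class, leaving out chromosomes X and Y. Of 24177 circRNAs in the table, 975 were in that class, 24 of them on chromosome X and 2 on chromosome Y, which left 949 (3.93% of all) from 806 host genes. The length of each of the 949 circles equalled the genomic span between its ends. Some overlapped each other with different ends, as in haptoglobin and ALB, and whether the ends lie at exon borders was not checked. The measurements are back-splice counts, that is, reads that cross the junction closing the circle, in 12 libraries of pig liver RNA.

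The livers came from Hezuo and Bama pigs, both small Chinese breeds, kept at cold (-15 ± 2 °C) or room temperature (23 ± 2 °C) and sampled on day 15. There were 4 groups of 3 pigs each: Hezuo pigs in the cold, Hezuo pigs at room temperature, Bama pigs in the cold and Bama pigs at room temperature. The labels number the pigs within each breed and repeat these numbers at both temperatures. They do not say whether a repeated number means the same pig, and the libraries were treated as separate pigs. No other treatment, sex or age is named. The comparisons ask whether cold changed single-exon circRNAs in each breed, whether the breeds differed at each temperature, and whether the breeds responded differently to cold.

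A circRNA is formed when the spliceosome joins a downstream splice donor to an upstream splice acceptor instead of to the next exon. Lacking free ends, such loops resist exonucleases and can outlast the linear transcript of the same gene. An exon that forms a circle alone has to be long enough for its own ends to be joined, and well-studied human circles such as that of HIPK3, a protein kinase gene, consist of 1 long exon.

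Back-splice totals ranged from 39117 to 75616 per library, and single-exon circRNAs had 1313 to 2853 of these counts. Gene counts ranged from 20041270 to 30188033 per library. Hezuo replicate 3 in the cold stood apart from the other 11 libraries: it held 372 of the 949 circles against 247 to 358 elsewhere, and 63 circles were counted in that library alone, against 21 to 39 in any other. DDX3Y, a Y-linked gene, had 1331 to 2407 counts in all 6 Hezuo libraries and 2284 and 3769 counts in Bama replicates 1 and 3 in the cold, against 0 to 3 in the other 4 Bama libraries. Sex was not labelled, and if read from this gene it was partly confounded with breed. All 8 hepatocyte marker genes were measured in every library. Their summed level was 78380 to 159400 counts scaled to 1000000 per library (CPM) in Hezuo pigs in the cold against 170100 to 190900 CPM in Hezuo pigs at room temperature, and 41960 to 104700 CPM in Bama pigs in the cold against 128400 to 141200 CPM in Bama pigs at room temperature. Summed over 4 stellate cell and fibroblast markers, levels were 536 to 1034 CPM in Hezuo pigs in the cold against 1060 to 1892 CPM at room temperature, and 450 to 803 CPM in Bama pigs in the cold against 1563 to 3356 CPM at room temperature. The 5 Kupffer cell and macrophage markers summed to 678 to 1537 CPM in Hezuo pigs in the cold against 412 to 687 CPM at room temperature, and to 1189 to 2242 CPM in Bama pigs in the cold against 646 to 1048 CPM at room temperature. None of these markers was at 0. Of the hepatocyte markers, ALB averaged 72870 CPM in the cold against 122700 CPM at room temperature in Hezuo pigs. In Bama pigs ALB averaged 34820 against 81740 CPM. FGB averaged higher in the cold, within the spread between pigs, at 12080 against 9668 CPM in Hezuo and 9044 against 8197 CPM in Bama pigs. The other hepatocyte markers are not given singly. In whole liver, fewer cells of a type and less RNA per cell cannot be told apart.

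Most single-exon circRNAs were rare and a few were abundant. The 949 circles had 22452 counts in all, with 2 to 1947 counts per circle and a median of 5, against a median of 7 over all circRNAs of the table. Exactly 2 counts, the lowest total listed, were held by 251 circles. At the other end, 42 circles had over 100 counts and 5 had over 500, and the 10 most abundant held 31.3% of the counts of the class. A single library held all the counts of 405 circles (42.7%), against 18.7% of the 18670 multi-exon circRNAs built of annotated exons (called exonic below, also off X and Y). All 12 libraries counted 66 circles (6.96%), against 8.5% of exonic circRNAs. For tests, a circle had to reach 2 counts in 3 or more libraries and a total of 10 or more, which 278 of the 949 passed. These 278 held 87.8% of the counts of the class, and the other 671 were described but not tested.

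**Figure D1:**
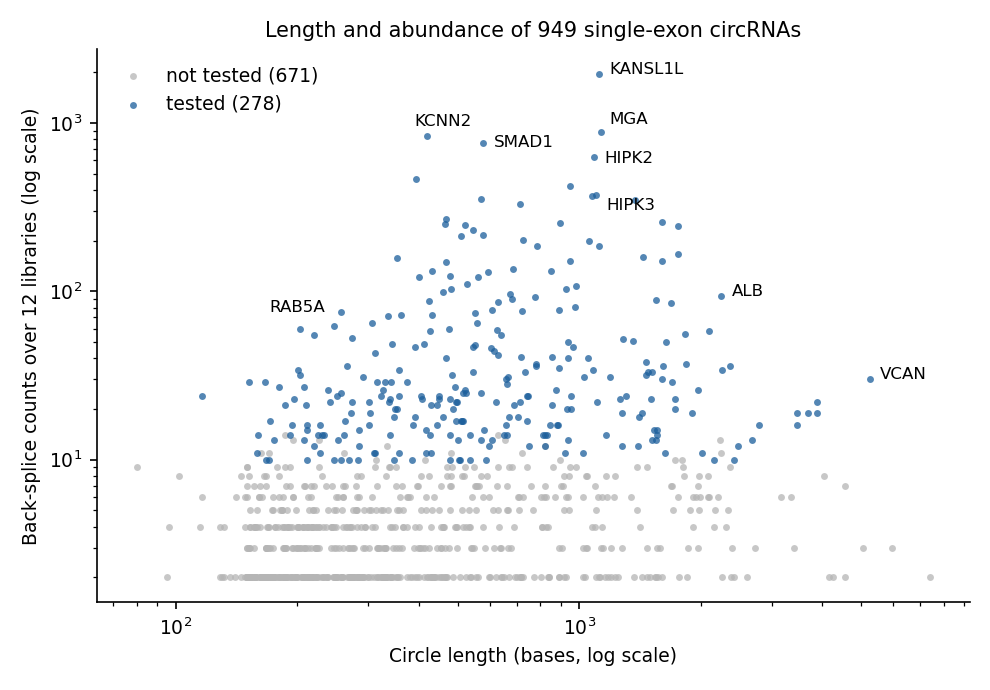
Each point is 1 of the 949 single-exon circRNAs, with its length in bases on the x axis and its back-splice counts summed over 12 libraries on the y axis, both on log scales. Circles that passed the filter for testing are blue and the others grey; the 5 with over 500 counts, led by KANSL1L, were 419 to 1131 bases long.

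The most abundant single-exon circle was that of KANSL1L, a paralog of the KAT8 regulatory NSL complex subunit KANSL1. It spans 1117 bases at chr15:112895498-112896614 on the minus strand, in the coordinates of the deposited table, whose build is not given in the sources used here. It had 1947 counts, 8.67% of all counts of the class, and ranked 15th among all 24177 circRNAs. Its counts were 109, 143 and 212 in Hezuo pigs in the cold, 122, 138 and 121 in Hezuo pigs at room temperature, 107, 187 and 149 in Bama pigs in the cold, and 219, 152 and 288 in Bama pigs at room temperature. Scaled to back-splice CPM, group means lay between 2617 ± 280 in Hezuo pigs at room temperature and 3366 ± 552 in Bama pigs at room temperature (SD, n = 3 each), and the groups overlapped. Its host was rich in circles: 16 circRNAs of KANSL1L had 6748 counts together, of which the single-exon circle made 28.9%, and the 3 most abundant of 6 circles sharing an end with it had 1448, 1224 and 1104 counts.

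Among the other hosts of the 10 most abundant circles, the share of the host's back-splice counts that lay on the single-exon circle varied from 42.9 to 98.5%. KCNN2, a calcium-activated potassium channel gene, had a circle of 419 bases with 837 counts, 98.5% of the counts of all circles of that gene. The share was 96.4% for the 1102-base circle of HIPK3 (372 counts), 95.3% for the 948-base circle of PRKD3, a protein kinase D gene (425 counts), 93.6% for the 1087-base circle of HIPK2, a kinase paralog of HIPK3 (627 counts), and 89.5% for the 578-base circle of SMAD1, a transducer of bone morphogenetic protein (BMP) signals (760 counts). The 1131-base circle of MGA, a partner of the transcription factor MAX, had 882 counts and made 68.3% of its host's counts. LRP6, a Wnt co-receptor, had a 394-base circle with 464 counts (74.96%), and ZBTB44, a zinc finger gene, a 1073-base circle with 370 counts (61.0%). SMAD5, a paralog of SMAD1 with the same role in BMP signalling, had a 571-base circle with 353 counts (42.9%). It was the only circle among the 10 most abundant that was not the most abundant of its host: an exonic circle of 943 bases that shares its start had 462 counts.

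The paralog pairs HIPK2 with HIPK3 and SMAD1 with SMAD5 thus gave single-exon circles of similar length among the 10 most abundant. Mean levels of the HIPK3 circle were 665 ± 239 CPM in Hezuo pigs in the cold and 534 ± 49 CPM in Hezuo pigs at room temperature, and 597 ± 161 CPM in Bama pigs in the cold and 591 ± 21 CPM in Bama pigs at room temperature (SD, n = 3 each). Those of the HIPK2 circle were 985 ± 210 CPM in Hezuo pigs in the cold, 1024 ± 238 CPM in Hezuo pigs at room temperature, 953 ± 335 CPM in Bama pigs in the cold and 1076 ± 273 CPM in Bama pigs at room temperature. For both kinase circles the group means lay within the spread of the pigs. Of the 10 most abundant circles, SMAD5 alone passed a test, in 1 of the 7 comparisons. The share called among all circRNAs lay between 0.0886 and 1.28% by comparison, so 1 call among 10 circles says little. The SMAD5 call was lost in 10 of 18 alternative fits. The log2 fold changes of HIPK2 lay between -0.17 and 0.12 over all 7 comparisons.

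Other hosts known for single-exon circles in human cells also gave them in pig liver. Of 8 such hosts listed, 6 had a tested single-exon circle. Besides HIPK2 and HIPK3, these were FOXO3, a forkhead transcription factor gene (1436 bases, 159 counts), SLC8A1, a sodium-calcium exchanger gene (1832 bases, 56 counts), CDYL, a chromodomain gene (667 bases, 31 counts) and ZNF609, a zinc finger gene (874 bases, 26 counts). PVT1 had no circRNA in the table, and MBNL1, a splicing regulator gene, had 4 circRNAs but none of a single exon. The FOXO3 circle had 3, 7 and 10 counts in Hezuo pigs in the cold, 13, 10 and 9 in Hezuo pigs at room temperature, 11, 24 and 3 in Bama pigs in the cold and 34, 8 and 27 in Bama pigs at room temperature. The FOXO3 counts of all 4 groups overlapped, and no comparison called the circle.

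Single-exon circles were short as a class and long among the abundant. The 949 circles were 80 to 7399 bases long with a median of 364, and the 278 tested had a median of 564.5 bases, against 300 for the 671 not tested. The 50 most abundant had a median of 699.5 bases and the 251 with 2 counts a median of 271 bases. Across the 949 circles, Spearman's rho between length and total count was 0.346, and across the 278 tested it was 0.194. Both are descriptions over circles of the same libraries. Exonic circRNAs had a median of 567 bases, and 543 among those tested. Per library, the median length of the single-exon circles counted was 541.5 ± 29.7 bases, against 556.5 ± 7.94 for exonic circRNAs (SD, n = 12). This difference of -15.0 bases had p = 0.0659 (exact sign-flip permutation over libraries, two-sided, smallest p possible 0.000488). Without the KANSL1L circle it was -17.0 bases with p = 0.0386 in the same permutation test. Among circRNAs with at least 10 counts in all, the order was reversed: single-exon circles had 606 ± 22 bases and exonic ones 547 ± 5.11, a difference of 59.3 bases with p = 0.000488 in the same permutation test, single-exon longer in 12 of 12 libraries. These tests were added after seeing the data, and the libraries count many of the same circles. Their p-values therefore do not measure the spread between circles. The longest tested circle, 5238 bases with 30 counts, is given the symbol VCAN by the deposited table, which describes the same gene as X-ray repair cross complementing 4, so its host name is uncertain.

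Single-exon circles more often stood alone at their ends. An end was counted as shared where another circRNA of the table starts or stops at the same base on the same strand. Of the 949 circles, 544 (57.3%) shared no end, 315 shared 1 and 90 (9.48%) shared both, whereas of exonic circRNAs 24.8% shared none and 28.6% both. Per library, 59.1 ± 1.63% of the single-exon circles counted shared an end, against 82.3 ± 0.605% of exonic ones (SD, n = 12). The difference of -23.2 percentage points had the same sign in 12 of 12 libraries, with p = 0.000488 (the exact permutation test named above) and an adjusted p of 0.000651 over 4 such tests. Here too the libraries count many of the same circRNAs, so these 12 values are not fully independent. The same holds for the tests of mean counts and of highly expressed hosts below. Single-exon circles sharing more ends were also more abundant: the median total was 4 counts with no shared end, 8 with 1 and 13 with 2. Exonic circRNAs had medians of 5, 8 and 13 counts by the same split. A length that is a multiple of 3 was held by 354 single-exon circles (37.3%), the same share as among exonic ones (37.3%).

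For 366 of the 949 circles no other circRNA of the same host had more counts, and 198 were the only circRNA of their host. The hosts of 298 had no exonic circRNA. Once counted in a library, single-exon circles had 6.11 ± 0.831 counts on average against 5.46 ± 0.632 for exonic circRNAs (SD, n = 12), higher in 12 of 12 libraries by 0.648 counts (exact permutation p = 0.000488, adjusted 0.000651 over the 4 tests). Among circRNAs with at least 10 counts the difference was 1.22 counts. The mean rested largely on KANSL1L: without its circle the difference was 0.141 counts, with single-exon circles lower in 3 libraries (exact permutation p = 0.104), and it was 0.216 counts when the most abundant exonic circRNA was left out as well (p = 0.0147 in the same permutation test). By the median total over all libraries, single-exon circles were lower, at 5 counts against 8.

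Host genes with high RNA levels gave many single-exon circles, most of them rare and short. Hosts above 100 FPKM (fragments scaled by gene length and library size, as deposited and averaged over 12 libraries) gave 172 of the circles (18.1%), against 5.54% of exonic circRNAs. Per library the shares were 11.7 ± 2.22% of single-exon circles and 5.84 ± 0.217% of exonic ones (SD, n = 12), higher in 12 of 12 libraries (exact permutation p = 0.000488, adjusted 0.000651). Among circRNAs with at least 10 counts the difference was 1.04 percentage points, with single-exon circles lower in 2 of the libraries (exact permutation p = 0.0147). Circles of these hosts had a median of 228 bases and 4 counts, and 24 of 172 were tested; those of the other 775 with a known host level had a median of 429 bases and 5 counts, and 252 were tested. Across 947 circles, Spearman's rho between host FPKM and total count was -0.154, and across the 276 tested it was 0.0685. In Hezuo replicate 3 in the cold, 17.2% of the circles counted came from such hosts, against 9.89 to 14.7% in the other 11 libraries.

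**Figure D2:**
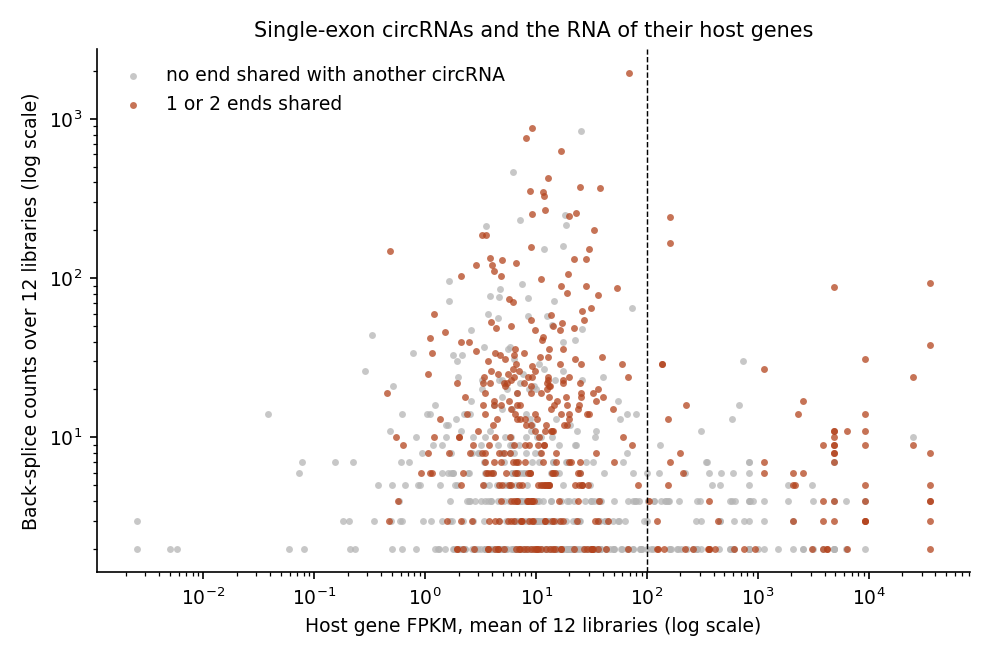
Each point is 1 single-exon circRNA whose host gene has an FPKM value; the x axis is the host's mean FPKM over 12 libraries and the y axis the circle's summed back-splice counts, both on log scales, with the dashed line at 100 FPKM. Orange points share 1 or 2 ends with another circRNA and grey points none; to the right of the line most circles have fewer than 10 counts.

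The hosts with the most circles were mostly genes of secreted plasma proteins. While 724 hosts gave 1 single-exon circle each, 7 gave 5 or more, among them the fibrinogen alpha chain gene (12 circles), APOB, the apolipoprotein of very-low-density lipoprotein (12), haptoglobin (11), ALB, which encodes albumin (8), FGB, the fibrinogen beta chain gene (5), and APOE, another apolipoprotein gene (5). Together the 7 hosts gave 58 circles with 547 counts, of which 10 were tested. The 12 APOB circles were 167 to 548 bases long, had 46 counts in all, and shared no end with any other circRNA. The 8 ALB circles were longer, 835 to 2244 bases, and all shared an end; the most abundant had 94 counts, with 13, 4 and 1 in Hezuo pigs in the cold, 9, 9 and 13 in Hezuo pigs at room temperature, 2, 8 and 15 in Bama pigs in the cold and 3, 7 and 10 in Bama pigs at room temperature. The 424-base circle of the fibrinogen alpha chain gene had 5, 0 and 40 counts in Hezuo pigs in the cold, 11, 1 and 11 in Hezuo pigs at room temperature, 8, 3 and 0 in Bama pigs in the cold and 6, 1 and 2 in Bama pigs at room temperature. Hezuo replicate 3 in the cold held 40 of its 88 counts, and no comparison called it.

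Grouped by the function of their hosts, the circles split between many rare and few abundant ones. Plasma protein and coagulation genes, matched by symbol, gave 45 circles from 15 hosts with 387 counts, 1.72% of the class. These circles had a median length of 252 bases, and none had more than 100 counts. This list leaves out APOE. It also misses the fibrinogen alpha chain gene (12 circles, 151 counts) and haptoglobin (11 circles, 89 counts), which have no symbol. A list of transcription and chromatin genes, which is partial and leaves out MGA, KANSL1L, SMAD1 and SMAD5, gave 55 circles from 47 hosts. These had 2509 counts, 11.2% of the class, at a median length of 631 bases and 6 above 100 counts. The list takes in the kinase genes HIPK2 and HIPK3, which held 631 and 378 of these counts. Genes of liver metabolism gave 19 circles with 307 counts, of which 216 belonged to CYP7A1, the rate-limiting enzyme of bile acid synthesis. Splicing and RNA-binding genes gave 5 circles with 135 counts. No tested circle of any of these lists, 8, 18, 2 and 3 in the order given, passed in any comparison. The share called among all circRNAs lay between 0.0886 and 1.28% by comparison, so that counts of 0 say little for lists of this size, and the called SMAD5 circle is in none of them.

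Some circles overlapped or nearly coincided, and their counts are not independent. Another single-exon circle of the set overlapped 110 of them, and 6 pairs had 1 end in common and the other within 10 bases. The ends of the PTP4A1 pair, from a phosphatase gene, differed by 3 bases at the start, with 243 and 167 counts. A pair of ENSSSCG00000008488, described as regulator of microtubule dynamics 2, likewise differed by 3 bases, with 3 and 269 counts.

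The share of back-splice counts that fell on the class did not differ between groups beyond the spread between pigs. It was 3.5, 3.36 and 4.28% in Hezuo pigs in the cold, 3.62, 3.70 and 3.64% in Hezuo pigs at room temperature, 3.36, 3.62 and 3.11% in Bama pigs in the cold and 3.59, 3.33 and 3.77% in Bama pigs at room temperature. The cold libraries averaged 3.54 ± 0.403% and the room-temperature libraries 3.61 ± 0.151% (SD, n = 6 each), a difference of -0.072 points with p = 0.705 (exact permutation within breeds, 400 arrangements, two-sided, smallest p 0.005). Hezuo libraries averaged 3.68 ± 0.318% and Bama libraries 3.47 ± 0.241% (SD, n = 6 each; exact permutation p = 0.255). After thinning every library to 39117 back-splice counts, 279.9 ± 34.5 circles were detected in the cold and 279.6 ± 13.04 at room temperature (exact permutation p = 0.995), and 278.7 ± 33.8 in Hezuo and 280.8 ± 14.7 in Bama pigs (exact permutation p = 0.925). All 4 p-values were 0.995 after adjustment over these tests. Without thinning, 548 circles were counted in Hezuo pigs in the cold, 485 in Hezuo pigs at room temperature, 504 in Bama pigs in the cold and 572 in Bama pigs at room temperature.

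**Figure D3:**
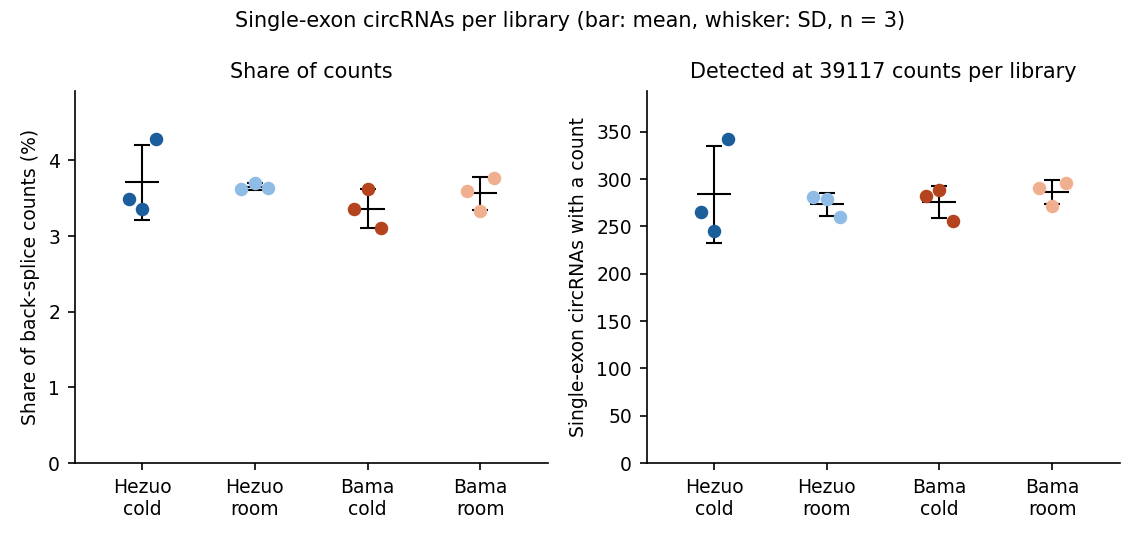
The left panel shows the percent of each library's back-splice counts that fell on single-exon circRNAs, and the right panel the number of these detected after thinning to 39117 counts, by group; points are pigs, bars are means and whiskers SDs (n = 3). Hezuo replicate 3 in the cold lies highest in both panels, at 4.28% and 342 circles, and the groups overlap.

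Cold against room temperature called no single-exon circle in either breed on its own. In Hezuo pigs, 0 of the 278 had an adjusted p below 0.05 (edgeR quasi-likelihood test, Benjamini-Hochberg adjustment over all 9032 circRNAs tested), against 0.0886% of all circRNAs. At an unadjusted p below 0.05 there were 13 (4.68%), against 5.79% of all circRNAs, and DESeq2 also called 0, against 0.0332% of all. On simulated counts this edgeR comparison recovered 7% of 100 circRNAs changed 4-fold and 63% of 100 changed 16-fold. All of these were drawn from abundant circRNAs. Calls of 0 therefore do not exclude changes of 4-fold. In Bama pigs 0 were called, against 0.155% of all circRNAs. Unadjusted p-values under 0.05 were found for 29 (10.4%, against 6.53% of all). DESeq2 called 0 of the 53 single-exon circles to which it gave an adjusted p, against 0.904% of all. The median log2 fold change of the tested single-exon circles was 0.00 in Hezuo and -0.06 in Bama pigs, against 0.00 and -0.07 over all circRNAs.

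Averaged over both breeds, 1 circle fell in the cold, against 0.199% of all circRNAs called (0.0554% lower). It was the 1057-base circle of ENSSSCG00000033875, a host with no symbol or description in the files, at chr1:135931968-135933024. It had 4, 0 and 30 counts in Hezuo pigs in the cold and 22, 56 and 21 in Hezuo pigs at room temperature. In Bama pigs it had 2, 2 and 5 counts in the cold and 12, 25 and 21 at room temperature. The Bama groups did not overlap, and in Hezuo pigs replicate 3 in the cold lay within the room-temperature range. Levels averaged 143 ± 220 CPM in the cold and 499 ± 355 CPM at room temperature (SD, n = 6 each), a log2 fold change of -1.91 ± 0.38 (SE; edgeR adjusted p = 0.00067). Within breeds the changes were -1.53 ± 0.49 in Hezuo (edgeR adjusted p = 0.523) and -2.29 ± 0.59 in Bama pigs (adjusted p = 0.0591). The call was lost without Hezuo replicate 2 at room temperature (adjusted p = 0.104) and with DESeq2 (0.0725), and without Hezuo replicate 3 in the cold the log2 fold change was -3.03 over both breeds and -3.78 in Hezuo pigs alone, which then passed the test (edgeR adjusted p = 0.000619). Summed hepatocyte and stellate cell marker levels were also lower, and summed Kupffer cell marker levels mostly higher, in the cold libraries, as given above. FGB, 1 of the hepatocyte markers, did not fall on average. The part of these markers in this change was not tested. An exonic circle of 535 bases from the same host changed by -1.36 ± 0.67 (edgeR adjusted p = 0.611), and the ratio of the single-exon to the exonic circle did not differ beyond the spread (log2 difference -0.47, exact permutation p = 0.6).

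Some circles with small p-values failed after adjustment. The 116-base circle of ENSSSCG00000024911, described as metallothionein-1E, a metal-binding stress protein, was the shortest tested. It had 0, 8 and 12 counts in Hezuo pigs in the cold and 0 in all 3 Hezuo pigs at room temperature, with 0, 0 and 4 in Bama pigs in the cold and 0 in all 3 Bama pigs at room temperature (edgeR adjusted p = 0.436 in Hezuo pigs). Metallothionein genes are near-identical copies, so these reads may be shared among them. The 468-base circle of ENSSSCG00000008488 had 10, 24 and 11 counts in Bama pigs in the cold and 49, 36 and 47 in Bama pigs at room temperature, a log2 fold change of -1.18 ± 0.43 (edgeR adjusted p = 0.652), and its counts in the 2 groups did not overlap. The NCK2 circle, from an adaptor protein gene, had 4, 0 and 6 counts in Bama pigs in the cold and 0 in the 3 Bama pigs at room temperature (edgeR adjusted p = 0.619), with 1, 1 and 0 in Hezuo pigs in the cold and 6, 3 and 0 in Hezuo pigs at room temperature (adjusted p = 0.703 for the breed difference in the response).

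Between the breeds, the response to cold differed for 0 of the 278 circles (edgeR, interaction of breed and temperature), against 0.0886% of all circRNAs; 16 (5.76%, against 5.67% of all) were under 0.05 before adjustment. With DESeq2 the count was 0, against 0.0221% of all. The smallest p belonged to PNPLA3, a lipid droplet hydrolase gene, whose 210-base circle had 0, 2 and 5 counts in Hezuo pigs in the cold and 0 in the 3 at room temperature, against 0 in the 3 Bama pigs in the cold and 4, 2 and 8 in those at room temperature (adjusted p = 0.349). The CYP7A1 circle had 21, 28 and 20 counts in Hezuo pigs in the cold and 23, 17 and 7 in Hezuo pigs at room temperature, while in Bama pigs it had 5, 12 and 9 counts in the cold and 25, 15 and 34 at room temperature. Its interaction on the log2 scale was 1.78 (edgeR adjusted p = 0.73).

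The breeds themselves differed in 4 single-exon circles when averaged over both temperatures, 3 higher and 1 lower in Hezuo pigs. That is 1.44% of the 278, against 1.28% of all circRNAs called (0.775% higher, 0.509% lower), so the share was near the background. DESeq2 called 2 of the 94 to which it gave an adjusted p, against 2.14% of all. At each temperature alone 1 circle was called, against 0.454% of all circRNAs for room temperature and 0.421% for cold.

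The clearest breed difference was a 256-base circle of RAB5A, a small GTPase gene of early endosomes, at chr13:6908887-6909142. It had no count in the 3 Hezuo pigs in the cold and 2, 0 and 1 counts in Hezuo pigs at room temperature. Bama pigs had 8, 5 and 23 counts in the cold and 8, 11 and 17 at room temperature. Every Bama library lay above every Hezuo library. Levels averaged 10.02 ± 16.6 CPM in Hezuo and 215 ± 120 CPM in Bama pigs (SD, n = 6 each; edgeR log2 fold change -4.86 ± 0.85, adjusted p = 4.76e-06). Summed over libraries there were 3 counts in Hezuo pigs of 278637 back-splice counts and 72 in Bama pigs of 347343, so that the Bama rate was 19.3 times the Hezuo rate, with a 95% interval of 6.33 to 95.5 (exact binomial, counting error only). In the cold, where all Hezuo libraries were at 0, the RAB5A circle was at least 10.9-fold lower in Hezuo pigs, set against a floor of 3 counts over the group (edgeR adjusted p = 0.000706), a call lost without Bama replicate 3 in the cold (adjusted p = 0.0856). At room temperature alone the adjusted p was 0.201.

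Other RNAs of RAB5A passed no test between the breeds. A second single-exon circle of the gene, of 365 bases, had 4 counts and was not tested. An exonic circle of 275 bases had 15 counts, too few to place it. Its log2 fold change between breeds was -1.29 ± 1.75 at room temperature and 0.10 ± 1.55 in the cold (SE). An exonic circle of 369 bases, the most abundant of the gene, had 6, 7 and 13 counts in Hezuo pigs in the cold and 8, 7 and 5 at room temperature, against 6, 7 and 12 in Bama pigs in the cold and 9, 19 and 9 at room temperature. Its log2 fold change between breeds was -0.19 ± 0.46 (edgeR adjusted p = 0.938), and that of the host gene's RNA was -0.11 (edgeR adjusted p = 0.447). The log2 ratio of the single-exon circle to this exonic circle was -3.32 ± 1.22 in Hezuo and 0.13 ± 0.70 in Bama pigs (SD, n = 6 each, pseudocount 0.5). The difference of -3.45 had p = 0.005, the smallest that the 400 arrangements within temperatures allow (exact permutation, two-sided), and 0.025 after adjustment over the 5 such ratios tested. All 5 ratios belong to circles already called on these same counts, so they add no independent support. RAB5A was also called in all 18 alternative fits, including that with Y-linked RNA as a covariate (log2 fold change -5.95, adjusted p = 0.000528). Within Bama pigs, the circle was counted both in the 2 libraries with DDX3Y RNA (8 and 23) and in the 4 without (5 to 17).

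The DISP1 circle differed in the opposite direction. DISP1 encodes a transporter that releases Hedgehog ligands, and its 526-base circle, at chr10:11654269-11654794, shares both ends with other circRNAs. It had 6, 8 and 3 counts in Hezuo pigs in the cold and 6, 41 and 27 in Hezuo pigs at room temperature. In Bama pigs it had 2, 1 and 5 counts in the cold and 4, 3 and 5 at room temperature. Hezuo replicates 2 and 3 at room temperature thus stood far above all other libraries. At room temperature levels averaged 517 ± 379 CPM in Hezuo and 61.7 ± 6.25 CPM in Bama pigs (SD, n = 3 each; edgeR log2 fold change 3.01 ± 0.65, adjusted p = 0.00174). Over both temperatures the log2 fold change was 2.10 ± 0.50 (adjusted p = 0.00415). Between cold and room temperature in Hezuo pigs the DISP1 circle changed by -2.01 ± 0.62 (edgeR adjusted p = 0.48). Without Hezuo replicate 2 at room temperature neither DISP1 breed call remained (adjusted p = 0.311 and 0.101), and DESeq2 did not call the room-temperature difference (adjusted p = 0.0558). Both calls were also lost with Y-linked RNA as a covariate (log2 fold change 1.12 at room temperature and 0.93 over both temperatures). In that fit the calls over all circRNAs fell from 41 to 2 at room temperature and from 116 to 20 over both temperatures. At room temperature DDX3Y RNA split exactly by breed, so only Bama pigs in the cold could set the covariate. This fit cannot separate sex from breed at room temperature.

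Other RNAs of DISP1 were higher in Hezuo pigs too. A 939-base exonic circle that ends at the same base averaged 298 ± 67.7 CPM in Hezuo and 103 ± 43.3 CPM in Bama pigs (SD, n = 6 each), with no overlap (edgeR log2 fold change 1.59 ± 0.45, adjusted p = 0.0386). The host gene's RNA rose by 0.40 ± 0.11 on the log2 scale (edgeR adjusted p = 0.0368). The other tested circles of DISP1, of 350 and 1108 bases, had log2 fold changes of 1.06 and 3.79 and did not pass (edgeR adjusted p = 0.481 and 0.135). The ratio of the single-exon to the 939-base circle did not differ beyond the spread between pigs (log2 difference 0.30, exact permutation p = 0.745).

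The third circle higher in Hezuo pigs, that of SMAD5, at chr2:138308109-138308679, was the most abundant of the 4. Its counts were 30, 16 and 39 in Hezuo pigs in the cold and 44, 34 and 53 in Hezuo pigs at room temperature, against 12, 17 and 11 in Bama pigs in the cold and 48, 19 and 30 in Bama pigs at room temperature. Levels averaged 750 ± 237 CPM in Hezuo and 387 ± 184 CPM in Bama pigs (SD, n = 6 each), with overlap through Bama replicates 1 and 3 at room temperature, which lay above Hezuo replicate 2 in the cold. The log2 fold change was 0.997 ± 0.279 (edgeR adjusted p = 0.0325), a call lost in 10 of 18 alternative fits. The 943-base exonic circle that starts at the same base changed by 0.27 ± 0.25 (edgeR adjusted p = 0.738) and the host gene's RNA by 0.26 ± 0.08 (adjusted p = 0.0673). The log2 ratio of the single-exon to the 943-base circle was -0.07 ± 0.48 in Hezuo and -0.80 ± 0.48 in Bama pigs (SD, n = 6 each), a difference of 0.73 with an exact permutation p of 0.035 and 0.0875 after adjustment over 5 ratios. For SMAD1, its paralog, the single-exon circle changed by 0.12 ± 0.21 (edgeR adjusted p = 0.897).

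The circle of ENSSSCG00000033875, which fell in the cold, was also higher in Hezuo pigs, at 456 ± 424 CPM against 186 ± 165 CPM in Bama pigs (SD, n = 6 each; edgeR log2 fold change 1.53 ± 0.38, adjusted p = 0.00888), with overlapping counts. Of the 18 alternative fits, 13 kept this call. It was lost with DESeq2, with Y-linked RNA as a covariate, and without Bama replicate 2 in the cold, Hezuo replicate 2 at room temperature or Hezuo replicate 3 in the cold; without this last library the log2 fold change was 0.43. Its ratio to the 535-base exonic circle of the same host differed by -0.04 on the log2 scale (exact permutation p = 0.95).

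**Figure D4:**
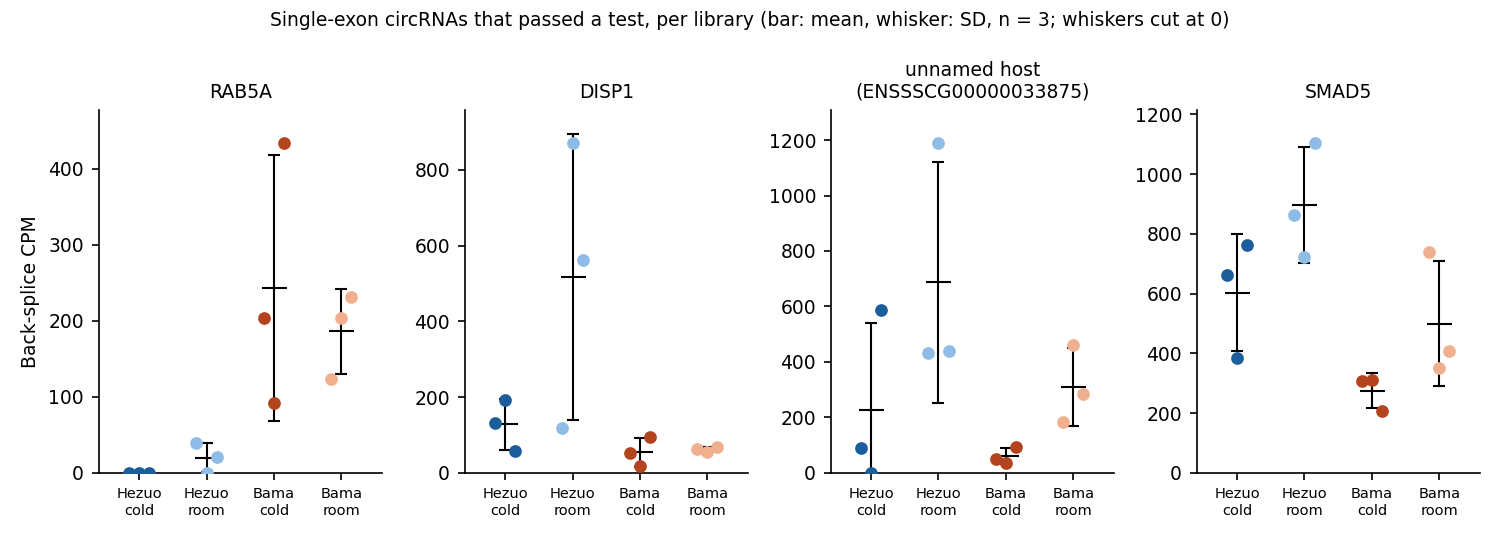
Back-splice CPM of the 4 single-exon circRNAs that passed a test, by group; points are pigs, bars are means and whiskers SDs (n = 3, cut at 0). The RAB5A circle is at 0 in the 3 Hezuo pigs in the cold and below 40 CPM in those at room temperature, under every Bama pig; the high DISP1 values are 2 Hezuo pigs at room temperature.

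**Figure D5:**
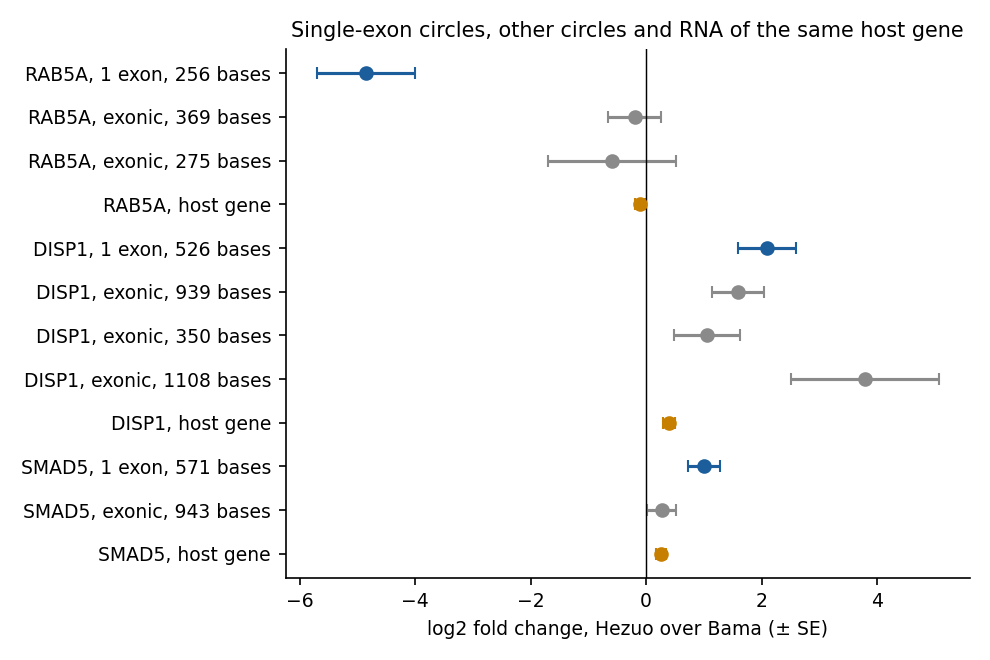
Log2 fold change of Hezuo over Bama pigs, averaged over temperatures, with SE, for the single-exon circles (blue), the other tested circles (grey) and the host gene's RNA (orange) of RAB5A, DISP1 and SMAD5. At RAB5A the single-exon circle stands at -4.86, while the 369-base exonic circle and the host gene's RNA lie near 0. The 275-base exonic circle of RAB5A had 15 counts, too few to place it. At DISP1 all points lie above 0.

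The fold changes of the circles were also set beside those of their host genes. Across 275 tested circles with a host value, Spearman's rho between the log2 fold changes of circle and host was 0.238 for Hezuo against Bama pigs averaged over temperatures, 0.0795 for cold against room temperature in Hezuo and 0.104 in Bama pigs. These are descriptions over circles of the same libraries. Of the 257 tested host genes of tested circles, 26 differed between the breeds (10.1%, edgeR adjusted p below 0.05), against 12% of all 13532 genes tested.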

How the data were processed

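Total liver RNA was depleted of ribosomal RNA and sequenced with strand kept, per the labels' protocols. The submitters' processing notes name fastp. Aligner, genome build and circRNA caller were not given in the sources used here. The authors deposited back-splice counts per circRNA, per the file headers, beside RPM values, which were not used. They also deposited estimated counts per gene, rounded here to whole numbers, and FPKM values per gene, used only to describe host levels. The 949 circles and the host lists were chosen with earlier results of these data known.

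Counts were tested with edgeR 4.0.16 in R 4.3.3: TMM scaling over circRNAs (factors 0.954 to 1.065), a robust quasi-likelihood fit of 4 groups to 12 libraries (8 residual degrees of freedom), and Benjamini-Hochberg adjustment over 9032 circRNAs or 13532 genes. The SE was taken from the log2 fold change and the F statistic (size of the change over the root of F). DESeq2 1.42.0 was an alternative. Other alternatives were DESeq2's size factors, gene library sizes, no filter, only the groups compared, a Y-linked covariate, a replicate block and each library left out. The fit was tested on simulated counts. CPM is counts after TMM scaled to 1000000 per library. Values per library were compared by exact permutation tests; the 4 tests against exonic circRNAs and the 5 ratios within a host were added after seeing the data. Intervals and floors cover counting error only, since reads carry no molecular identifiers.

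Named circles were the 10 most abundant, those called per comparison (up to 8 each way, or else the 3 smallest p-values), those of 8 hosts known for single-exon circles, hosts with 5 or more (1 is not reported here), and the longest and shortest tested; PTP4A1 was named after its values were seen. Host symbols were in the file for 851 circles, 35 more were found among Ensembl names, and 63 had none. Replicates are numbered pigs, and no pair agreed within sampling noise (chi-square per degree of freedom 2.47 to 3.70).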

Additional observations from a re-analysis of the deposited data

Results flagged for a closer look

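Single-exon circRNAs on the sex chromosomes lie outside the comparisons above. The 24 on chromosome X had 210 counts over the 12 libraries, of which 76 belonged to GPC3, a glypican gene. The 2 on chromosome Y had 27 counts. Of the 14 counts of 1 of these, from ENSSSCG00000039144, 8 were in Bama replicate 1 at room temperature, a library with 2 DDX3Y counts. The circles of both chromosomes are given as values only, because sex was not labelled and DDX3Y RNA was not balanced between the breeds.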

How the results depend on the processing

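Over 18 pairs with the same replicate number, deviations from the group means correlated at -0.0269 to 0.0344. These include pairs across breeds. Between cold and room temperature in Hezuo pigs, same-number pairs had 0.00457 to 0.0344 and other pairs -0.0419 to 0.0147. In Bama pigs they had -0.00845 to 0.00236 and -0.00492 to 0.0113. Values this near 0 at low counts cannot decide whether any pigs were paired. The replicate block left the single-exon calls at 0 and 0 for cold in Hezuo and Bama pigs. For breed it left 1 and 1, at room temperature and in the cold. It gave 0 for the interaction, 1 for cold over breeds and 4 for breed over temperatures, with 20 host genes in place of 26. Over all circRNAs it called 6, 13, 37, 30, 5, 19 and 100 in this order. DESeq2 called 0 for breed at room temperature, 0 for cold over breeds and 2 for breed over temperatures. Over all circRNAs given an adjusted p it called 18 of 2552, 10 of 1502 and 62 of 2902. The Y-linked covariate gave 0 and 1 for the 2 breed comparisons at room temperature and over temperatures. Over all 9032 circRNAs that fit called 2 and 20, against 41 and 116 in the main fit. Bama pigs in the cold had 1 call with DESeq2 size factors and 1 with gene library sizes, against 15 and 14 over all circRNAs. Leaving out 1 library gave 0 to 1 calls for cold in either breed. For breed it gave 0 to 1 at room temperature and 0 to 2 in the cold. The interaction had 0 to 0, cold over breeds 0 to 1 and breed over temperatures 2 to 5, with 10 to 29 host genes. Over all circRNAs the ranges in this order were 2 to 17, 25 to 42, 30 to 47, 1 to 8, 14 to 21 and 83 to 109. Over all genes the range was 701 to 1912. The share of counts in cold against room temperature became 0.0838 as a share of detected circRNAs and ranged from -0.215 to 0.0169 with a library left out; for breed it ranged from 0.0756 to 0.307. The number detected at equal depth turned to -16.7 for cold without thinning (-14.2 to 9.99 with a library left out) and to 9.43 for breed with at least 2 counts (-16.6 to 7.57). Against exonic circRNAs, the length difference was 59.3 bases above 10 counts and -18.5 to -9.68 with a library left out (-17.0 without the KANSL1L circle and -16.96 without the most abundant exonic circRNA as well, both with p = 0.0386 in the exact permutation test), of shared ends -23.4 to -23.0 points, of mean counts 0.596 to 0.697 (0.141 without the KANSL1L circle) and of highly expressed hosts 5.37 to 6.05 points. With a library left out, the log2 ratio differences within a host ranged from -3.64 to -3.11 for RAB5A, 0.568 to 0.911 for SMAD5 (p above 0.05 without any 1 of 9 libraries), 0.0134 to 0.745 for DISP1, and for ENSSSCG00000033875 from -0.972 to 0.237 for cold and -0.753 to 0.457 for breed, the last 0.174 with a pseudocount of 1. The class tests and ratios, and their alternatives, were chosen after seeing the data. Causes were not tested.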
